A study of Cervus nippon with 4 samples.

Results

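The adult testis of the Sika Deer at 5 years (Tst_3) was compared with the testis at 3 years (Tst_2), over the genes above a low limit of expression in at least 1 of the 2 libraries. A gene was taken when its FPKM was above 5 in Tst_2 or Tst_3, which left 27084 of the 629520 genes listed in any of the 4 libraries of the series. FPKM is the number of sequenced fragments of a gene, scaled by the length of the gene and by the mapped fragments of the library, so it sets genes of different length and libraries of different size on 1 scale. Testicular RNA of the Shuangyang breed was sequenced on an Illumina platform as poly-A selected mRNA, with 1 library per age. The RNA of 3 animals was pooled for each library, at 1 year in the juvenile group (Tst_1), 3 years in the adolescence group (Tst_2), 5 years in the adult group (Tst_3) and 10 years in the aged group (Tst_4). No treatment was given by the labels. With 1 pooled library a side, no error or test can be given for any value, and age, the animals of a pool and the library cannot be told apart.

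Spermatogenesis takes place in the seminiferous tubules, where spermatogonia divide, spermatocytes pass through meiosis and spermatids reshape into sperm, supported by Sertoli cells and by hormone from the Leydig cells between the tubules. In an adult testis most RNA comes from germ cells, and spermatids hold a few transcripts at very high levels, such as those of protamines and transition proteins that package sperm chromatin. The Sika Deer breeds by season, and its testes grow and regress over the year. The files give assembled gene identifiers without gene names or sequences, so the tissue could not be checked against its marker genes and no gene below is assigned a function. In bulk tissue, fewer cells of a type and less RNA per cell cannot be told apart.

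The 27084 genes held 78.0% of all FPKM in Tst_2 and 74.1% in Tst_3. Their summed FPKM was 668959 in Tst_2 and 607600 in Tst_3, a fall of 9.17%, whereas the genes outside this set rose in sum from 188835 to 212828. In Tst_4 the same genes summed to 640350, and in Tst_1 to 470426. The genes were kept for their level at 3 or 5 years, so a low sum at 1 year follows from that choice. Over all genes listed, total FPKM was 870245 at 1 year, 857794 at 3 years, 820429 at 5 years and 834903 at 10 years. The depth behind a value is not known from the files, which hold no read counts, so no counting interval is given.

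A gene was called when its log2 ratio of Tst_3 over Tst_2, with 0.1 FPKM added to each value, was above 1 in size, that is, more than 2-fold apart on that scale. Of the 27084 genes, 16.8% were called, with 2246 higher (8.29%) and 2293 lower (8.47%) in Tst_3. Over all genes taken, the directions were therefore almost equal in number. The numbers were not equal within levels of expression. Between 5 and 10 FPKM in the higher of the 2 libraries, 1658 genes were called higher and 1379 lower. Between 10 and 15 FPKM the lower genes were in the majority, with 396 against 289. Above 15 FPKM 518 genes were lower and 299 higher, and above 60 FPKM 67 were lower and 28 higher. The lower genes thus rose from 45.4% of the called genes between 5 and 10 FPKM to 63.4% above 15 FPKM and 70.5% above 60 FPKM. Just outside the limit of 5 FPKM, between 4 and 5 FPKM, 2198 genes were higher and 889 lower, and just inside it, between 5 and 6 FPKM, 579 were higher and 497 lower. Values near the limit can rest on few fragments. By the study's summary Tst_3 had fewer clean reads than Tst_2, so 1 fragment can stand for a higher FPKM there. What this adds to the lead of higher genes near the limit, from which the lower share rises, was not tested.

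**Figure D1:**
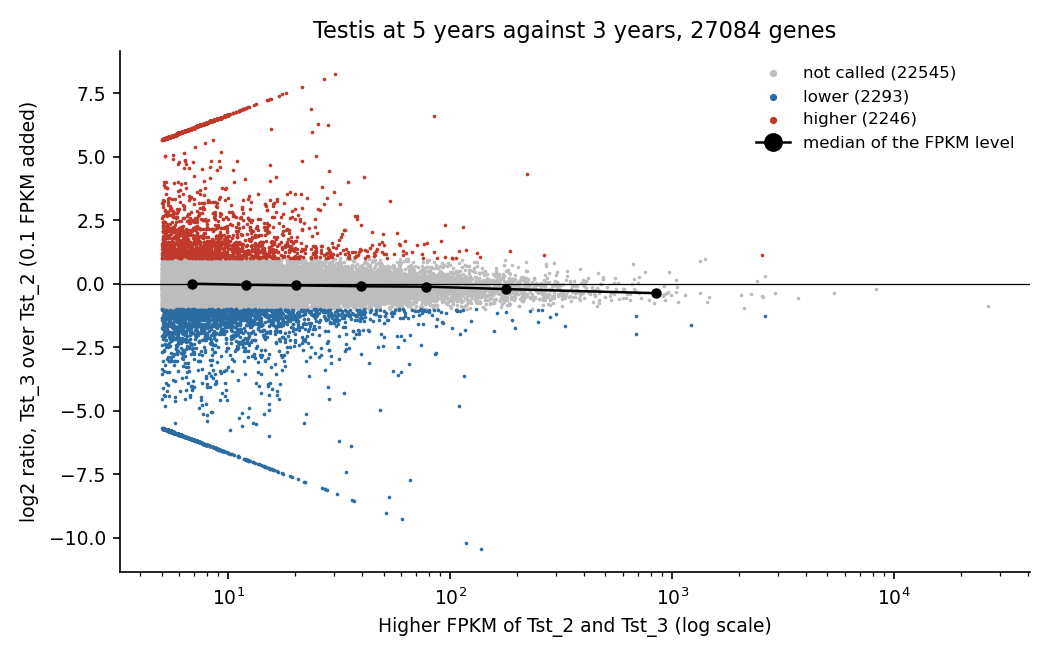
Log2 ratio of Tst_3 over Tst_2 (vertical axis, 0.1 FPKM added) against the higher FPKM of the 2 libraries (horizontal log axis), with 1 point per gene, called genes in red (higher) and blue (lower), and a black line through the median of each FPKM level. The median moves from 0.01 at 5 to 10 FPKM to -0.37 above 500 FPKM, and the straight outer bands are genes listed in only 1 of the 2 libraries.

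The called genes were a small part of this difference. When every gene was counted by the sign of its ratio, 49.6% were lower in Tst_3 between 5 and 10 FPKM, 54.7% between 15 and 30 FPKM, 61.2% between 60 and 120 FPKM and 76.8% above 500 FPKM, where 53 of 69 genes were lower. The share of genes on the lower side rose at each of the 7 levels of FPKM. The median log2 ratio was 0.01 between 5 and 10 FPKM, -0.06 between 15 and 30, -0.11 between 60 and 120, -0.21 between 120 and 500 and -0.37 above 500 FPKM. A typical gene above 500 FPKM in the higher library therefore stood at 0.776 times its level at 3 years, and a typical gene between 5 and 10 FPKM at 1.00 times. With a log2 ratio above 0.5 in size counted instead, 364 genes above 60 FPKM were lower and 120 higher. Within the same levels, the share of genes called in either direction fell from 24.7% between 5 and 10 FPKM to 4.68% above 60 FPKM.

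**Figure D2:**
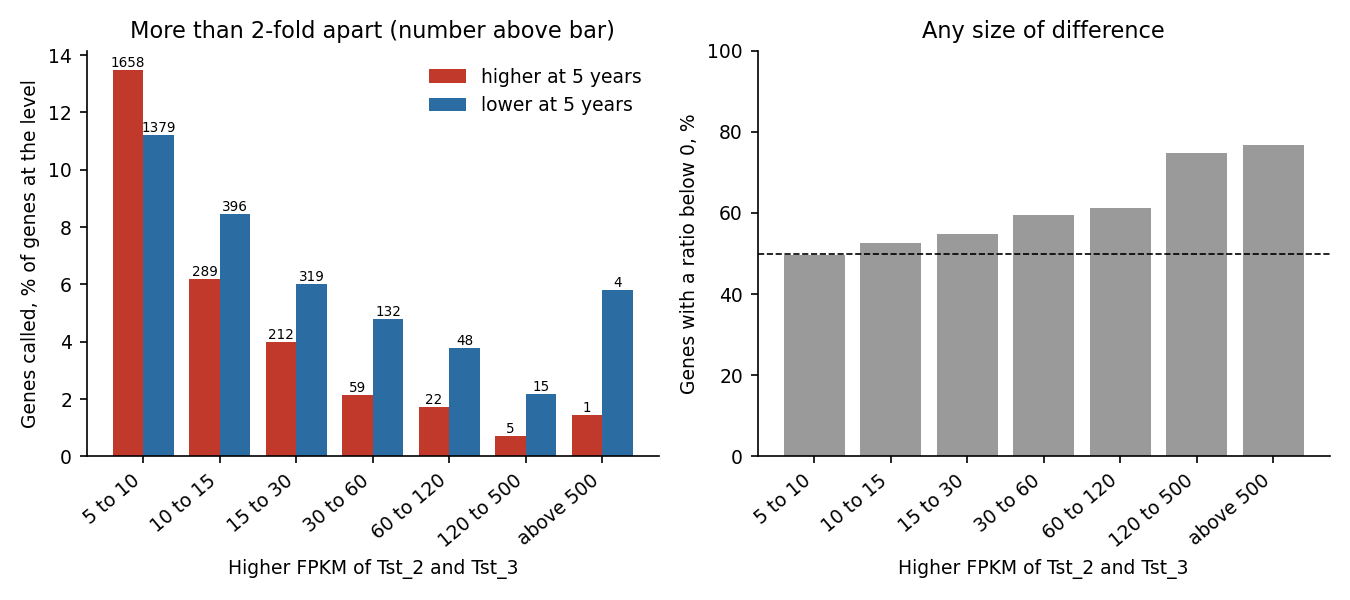
Left, genes more than 2-fold higher (red) or lower (blue) in Tst_3 than in Tst_2 as a percentage of the genes at each level of FPKM, with their number above the bar; right, genes with a ratio below 0 as a percentage, with a dashed line at 50%. Higher genes lead between 5 and 10 FPKM, 1658 against 1379, and lower genes lead at the 6 levels above it.

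The level used above was that of the higher library of the pair, which is itself part of the ratio. When genes were ordered by their FPKM in Tst_4, which is not in the ratio, 51.7% were lower in Tst_3 between 5 and 15 FPKM, 55.0% between 15 and 60, 60.7% between 60 and 120, 73.7% between 120 and 500 and 73.0% above 500 FPKM. The median log2 ratio at these levels was -0.02, -0.06, -0.10, -0.19 and -0.34. Below 5 FPKM in Tst_4, 54.5% of the 5454 genes were lower, with a median of -0.10, more than between 5 and 15 FPKM, and of the 1218 genes listed at 0 there 37.5% were lower. The share of lower genes was thus highest above 120 FPKM when the level was read in Tst_4, but it did not rise evenly from the lowest level. The excess in called genes was smaller there, with 24 lower and 11 higher between 60 and 120 FPKM, 7 and 5 between 120 and 500, and 1 and 1 above 500.

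Rescaling moves all log2 ratios by almost the same amount, so by construction it cannot change the distance between levels much, but it can change their side. Median-of-ratios scaling over the 153596 genes listed in all 4 libraries lowered each log2 ratio by about 0.20, so that the median was -0.19 between 5 and 10 FPKM and -0.56 above 500 FPKM, and 114 genes were lower and 17 higher above 60 FPKM. Scaling to equal FPKM totals raised each ratio by about 0.06. Under it the medians between 10 and 15 FPKM and between 15 and 30 FPKM turned to the higher side, with 0.03 and 0.00394, and the median between 5 and 10 FPKM was 0.07, while the median above 500 FPKM was -0.30 and 52 genes were lower and 33 higher above 60 FPKM. Whether the levels below 30 FPKM lay higher or lower at 5 years thus depended on the scaling, and the lower side above 60 FPKM did not under these scalings.

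The most abundant transcripts carried much of the fall. Above 500 FPKM the summed FPKM of the 69 genes went from 108420 in Tst_2 to 82369 in Tst_3, which was 42.5% of the net fall of all 27084 genes. The gene with the largest loss, c693433_g1, was also the most abundant gene at 3, 5 and 10 years. Its FPKM was 0.81 at 1 year, 26561 at 3 years, 14666 at 5 years and 25478 at 10 years, so it was almost absent at 1 year and lowest of the later ages at 5 years. Its log2 ratio of Tst_3 over Tst_2 was -0.86, which is not a call, but its loss of 11896 FPKM was 19.4% of the net fall. Without it the summed FPKM of the genes still fell by 7.70%. These sums are of the deposited FPKM and were not rescaled, and the total over all genes listed was also lower in Tst_3. As a share of that total, c693433_g1 made up 3.10% in Tst_2 and 1.79% in Tst_3.

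Of the 10 genes with the highest FPKM in Tst_2, 9 were lower in Tst_3, with log2 ratios from -1.26 to 0.13, and of the first 20, 17 were lower. Ranking in Tst_2 favours genes with a high value in that library, and so favours a fall. Ranked in Tst_3, which favours a rise, 7 of the first 10, 14 of the first 20 and 69 of the first 100 genes were lower, against 81 of the first 100 ranked in Tst_2. The levels at 1 year of the 20 genes ranked in Tst_2 were of different kinds. The genes at ranks 4, 6 and 12 at 3 years had an FPKM of 0, 0.05 and 0 at 1 year, and went from 3677 to 2511, from 2623 to 1095 and from 2106 to 1076 FPKM between 3 and 5 years. The genes at ranks 5, 7 and 8 were abundant at 1 year, with 4006, 3870 and 2586 FPKM, and went from 2888 to 2240, from 2563 to 1778 and from 2541 to 1804 FPKM. The fall among the most abundant genes thus included genes almost absent at 1 year as well as genes already high at that age. When the 10 highest genes were taken from Tst_4 instead, 8 were lower in Tst_3 than in Tst_2.

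**Figure D3:**
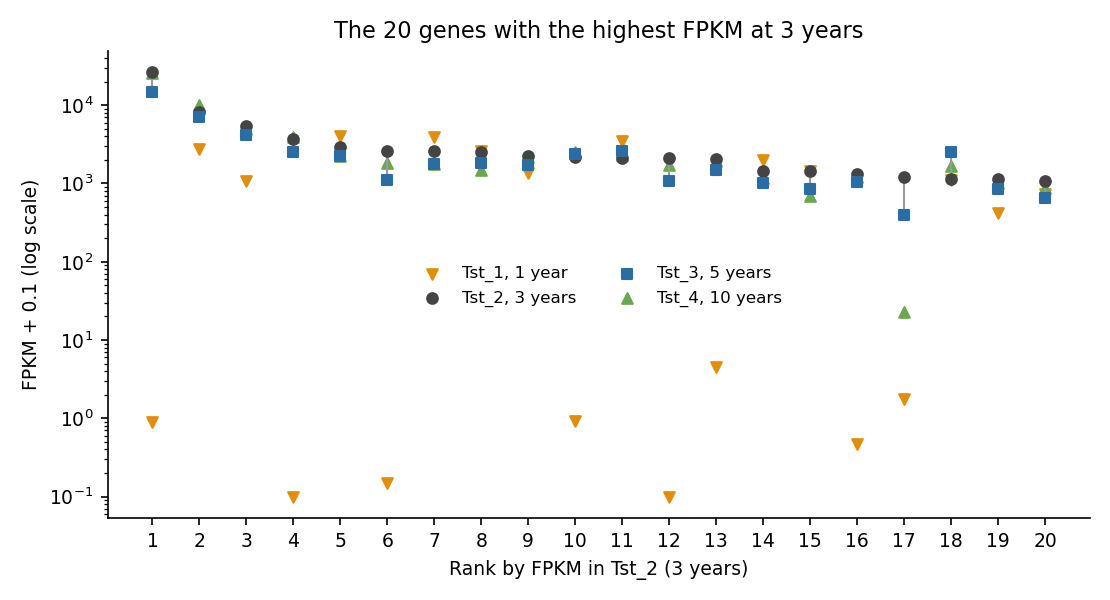
FPKM plus 0.1 (log axis) in the 4 libraries for the 20 genes with the highest FPKM at 3 years, ordered by that rank, with a grey line between Tst_2 and Tst_3. In 17 of the 20 the 5-year value lies below the 3-year value, and the 1-year values (orange) are near those of the later ages in some genes and below 5 FPKM in others.

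Above 60 FPKM 33.6% of the genes had a ratio above 0, that is, were higher in Tst_3. The largest gain of FPKM was that of c677792_g3, which went from an FPKM of 1148 at 3 years to 2539 at 5 years, with 1106 at 1 year and 1676 at 10 years. Its log2 ratio of Tst_3 over Tst_2 was 1.15, and 0.95 after median-of-ratios scaling, where it was no longer called. It was present at all ages and highest at 5 years. The largest log2 ratio among genes above 15 FPKM in the higher and above 0.3 FPKM in the lower library was that of c590286_g1, which went from 0.76 FPKM at 3 years to 84.8 FPKM at 5 years, a log2 ratio of 6.62, with 0.15 FPKM at 1 year and 0.35 FPKM at 10 years. This gene was high in the 5-year pool and near the bottom of the scale in the other 3. The largest fall by the same rule was that of c418988_g1, which went from 35.8 FPKM at 3 years to 0.33 FPKM at 5 years, a log2 ratio of -6.38, and was listed at 0 at 1 year and at 0.31 FPKM at 10 years. It was high in the 3-year pool and near the bottom of the scale in the other 3. The low value of each of these pairs can rest on few fragments, and the ratios are correspondingly uncertain in size.

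The size of the differences was read in the called genes listed in both libraries. Among the genes above 15 FPKM that were listed in both libraries, the 491 lower genes had a median difference of 2.59-fold and the 290 higher genes of 2.64-fold, and 101 and 77 of them were more than 4-fold apart. The lower genes were therefore more numerous, and their typical size was near that of the higher genes. Both sets were cut at more than 2-fold, which by itself holds their medians near each other. Nothing is therefore read from the similar size. A further part was missing from 1 list. Of all genes called higher, 666 were not listed in Tst_2, and of those called lower, 479 were not listed in Tst_3. These are counted as 0 here, and no fold is given for them. Their FPKM in the library that listed them had a median of 6.77 in Tst_3 and 6.11 in Tst_2, so they lay close to the limit of 5 FPKM, and 9 and 27 of them were above 15 FPKM.

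The comparison with the juvenile testis asks whether the genes that differed between 3 and 5 years had also differed between 1 and 3 years. Between 1 and 3 years (Tst_2 vs. Tst_1), 50.2% of all 27084 genes were more than 2-fold higher at 3 years by the same measure and 14.4% lower. Of the 2293 genes called lower at 5 years, 1873 (81.7%) were higher at 3 years than at 1 year and 144 (6.28%) lower. Of the 2246 genes called higher at 5 years, 845 (37.6%) were higher at 3 years than at 1 year and 421 (18.7%) lower. These shares use Tst_2 in both comparisons, so a high value in Tst_2 alone puts a gene on the lower list and among those higher than at 1 year, and the reverse holds for a low value.

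Tst_4 vs. Tst_1 shares no library with Tst_3 vs. Tst_2 and was read in its place. By it, 48.2% of all 27084 genes were higher at 10 years than at 1 year and 17.7% lower. Of the genes called lower at 5 years 62.3% were higher at 10 years than at 1 year, and of the genes called higher at 5 years 43.1%. Of the 2246 higher genes, 696 were listed at 0 in Tst_4 and 483 were listed in Tst_3 alone, so these could not be higher at 10 years, and nothing is read from the lower share of the higher genes. Of the 2293 lower genes, 383 were listed at 0 in Tst_4. Among the genes above 15 FPKM, 61.2% were higher at 3 years than at 1 year and 8.43% lower. By the 10-year library, 61.4% were higher than at 1 year and 10.9% lower. Of the 518 lower genes above 15 FPKM, 398 (76.8%) were higher at 10 years than at 1 year, and of the 299 higher genes 183 (61.2%), which is near the background. Above 60 FPKM the background was 74% higher and 7.59% lower at 3 years against 1 year. At 10 years against 1 year it was 74.2% higher and 9.12% lower. There, 54 of the 67 lower genes (80.6%) and 16 of the 28 higher genes (57.1%) were higher at 10 years than at 1 year. Of the same genes, 10 of the 67 lower genes (14.9%) and 2 of the 28 higher genes (7.14%) were lower at 10 years than at 1 year.

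The levels of the called genes at 1 year depended on the expression level taken. Over all called genes, the median FPKM at 1 year was 0 for both directions, 82.4% of the lower and 80.0% of the higher genes were below 5 FPKM, and 53.9% and 50.4% were listed at 0. Of all 27084 genes, 49.4% were below 5 FPKM at 1 year and 18.2% were listed at 0, with a median of 5.13 FPKM. Called genes of both directions were thus lower at 1 year than the genes taken as a whole, but the comparison was not matched for level. Of the 4539 called genes 3037 lay between 5 and 10 FPKM, against 12302 of all 27084 genes. Of the higher genes 483 were listed in Tst_3 alone, and of the lower genes 266 in Tst_2 alone. Their value at 1 year is therefore 0 by definition, and nothing more is read from this difference. The 67 lower genes above 60 FPKM had a median FPKM of 0.08 at 1 year, 88.2 at 3 years, 35.3 at 5 years and 49.3 at 10 years. At 1 year 28 of the 67 were not listed and 53 were below 5 FPKM. The 28 higher genes had a median FPKM of 16.6 at 1 year, 34.1 at 3 years, 92.5 at 5 years and 63.8 at 10 years, and 9 of them were below 5 FPKM at 1 year. Of all 2028 genes above 60 FPKM, 40.3% were below 5 FPKM at 1 year. Above 60 FPKM the lower genes were therefore mostly at the bottom of the scale in the juvenile testis, whereas most of the 28 higher genes were not. Above 15 FPKM 77.8% of the 518 lower genes and 55.9% of the 299 higher genes were below 5 FPKM at 1 year. Of all 10104 genes above 15 FPKM, 40.4% were below 5 FPKM at that age. The contrast was thus also present above 15 FPKM. It was absent over all called genes, most of which lay between 5 and 10 FPKM. The values in Tst_2 and Tst_3 chose these genes and are given as a description, and the level in Tst_4 lay between them in the median of both groups.

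**Figure D4:**
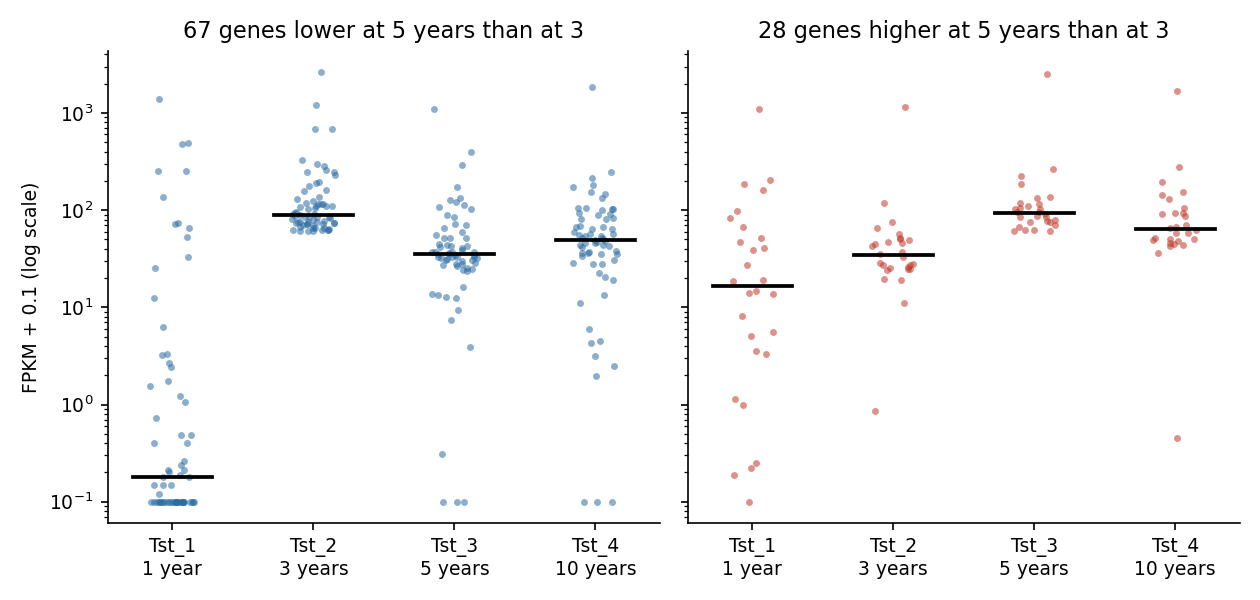
FPKM plus 0.1 (log axis) in each of the 4 libraries for the genes above 60 FPKM that were more than 2-fold lower (left, 67 genes) or higher (right, 28 genes) in Tst_3 than in Tst_2, with 1 point per gene and library and a bar at the median. The median of the lower genes at 1 year is 0.08 FPKM, against 16.6 FPKM for the higher genes.

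Above 120 FPKM 19 genes were lower and 6 higher, and the lower genes differed in what followed at 10 years. In 11 of the 19 the value in Tst_4 was above that in Tst_3. An example, chosen like the others in this group after its values were seen and listed at 0 at 1 year, had an FPKM of 329.1 at 3 years, 103.6 at 5 years and 248.4 at 10 years. The 19 genes were chosen for a low value in Tst_3, which favours a later rise. Of the 744 genes above 120 FPKM in Tst_3 or Tst_4, 72.0% were higher in Tst_4 and 28.0% lower. A later rise was therefore not particular to the 19 genes, and its share was smaller among them than among the 744. In 7 of the 19 the value in Tst_4 was below that in Tst_3, and among these were genes that were low at 1 year and went down at both later steps. The gene at rank 17 at 3 years had an FPKM of 1.65 at 1 year, 1209 at 3 years, 398.2 at 5 years and 22.6 at 10 years. Another had 2.34, 683.2, 172.0 and 13.4 FPKM in the same order, and another 0.38, 195.7, 58.9 and 3.04 FPKM. These 3 genes were highest at 3 years, with an intermediate value at 5 years and a low value at 1 and 10 years. Of the 6 higher genes, 5 were at 5 FPKM or more at 1 year, and of the 19 lower genes 5. No such share was worked out over all genes above 120 FPKM. Among all 2028 genes above 60 FPKM, 40.3% were below 5 FPKM at 1 year.

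The lean to the lower side was also read over all abundant genes, grouped by Tst_4 vs. Tst_1. Among genes above 60 FPKM in Tst_4, 1449 were more than 2-fold higher at 10 years than at 1 year, 127 were lower and 283 were within 2-fold. Of the 1449 genes, 66.7% were lower in Tst_3 than in Tst_2, with a median log2 ratio of -0.15, and 31 were called lower and 11 higher. Of the 127 genes, 81.1% were lower, with a median of -0.23, and 1 was called lower and 2 higher. Of the 283 genes that were within 2-fold at 10 years and at 1 year, 52.3% were lower, with a median of -0.01, and 0 were called lower and 4 higher. At the same level of expression, the genes with similar values at 1 and 10 years thus lay near 0 between 3 and 5 years, while those that differed between 1 and 10 years, in either direction, lay on the lower side. With equal FPKM totals the 3 medians were -0.09, -0.17 and 0.06, and with median-of-ratios scaling -0.35, -0.43 and -0.21, so the side of the third group depended on the scaling. The distance between the groups is fixed by such a scaling and is not evidence of stability. No test of this difference was possible, as genes are not replicates.

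**Figure D5:**
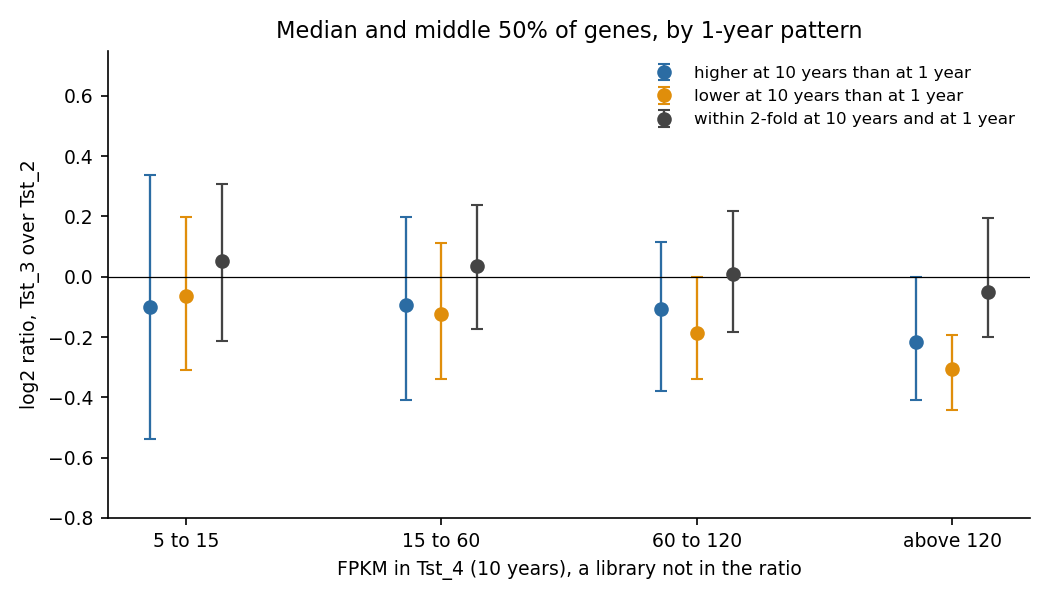
Median log2 ratio of Tst_3 over Tst_2 (points) with the middle 50% of genes (bars), by FPKM in Tst_4 and by the difference between 10 years and 1 year. Above 120 FPKM the medians are -0.22 for genes higher at 10 years than at 1 year, -0.31 for genes lower at 10 years and -0.05 for genes within 2-fold.

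The next age step was set beside these values with the same filter. In Tst_4 vs. Tst_3, which shares the 5-year library, 17.4% of 26859 genes were called. Above 60 FPKM 47 were higher and 26 lower there, and 31.8% of the genes had a ratio below 0, with a median of 0.14. In Tst_4 vs. Tst_2, which leaves the 5-year library out, 17.4% of 26843 genes were called. Above 60 FPKM 31 were higher and 49 lower, 47.9% had a ratio below 0 and the median was 0.02. On the deposited values, which were not rescaled here, the abundant genes thus had a median near 0 between the 3-year and the 10-year pool. Their called genes nevertheless leaned to the lower side at 10 years, also above 120 FPKM, with 17 lower and 8 higher. The shift of the median was present in both comparisons that use the 5-year pool, which share that library and are not independent.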

How the data were processed

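Testis mRNA of 4 ages was measured as 1 library per age, each from the pooled RNA of 3 animals. The authors deposited 1 list per library with a gene identifier and an FPKM value given to 2 decimals. How the reads were aligned and counted, and on which assembly, is not given in the sources used here, and the lists hold no read numbers. By the sequencing summary of the study, Tst_3 had fewer clean reads than Tst_2. The age of each library was taken from its label.

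Lists were joined on the identifier, and a missing gene was set to 0. Genes with FPKM above 5 in Tst_2 or Tst_3 were kept, and log2 ratios were taken after adding 0.1. A ratio above 1 in size was called, without a test. The set of genes, the FPKM levels and the comparisons were chosen with earlier results of these data known. Named genes were the largest log2 rise and fall, above 15 FPKM in the higher and 0.3 FPKM in the lower library, and the largest gain and loss of FPKM. Alternatives covered the pseudocount, filter, scaling, size of the call, missing genes and identifier clusters. Under scaling, the genes kept and their levels were those of the deposited values. Calculations used Python 3.11.15 with numpy 2.4.6, pandas 2.3.3, scipy 1.17.1 and matplotlib 3.10.9.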

Additional observations from a re-analysis of the deposited data

How the results depend on the processing

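The reported values were 2246 higher and 2293 lower genes, 50.5% lower among the called genes and 70.5% above 60 FPKM, a median log2 ratio of -0.05, and 88.0% of lower and 56.4% of higher genes that also differed between 3 years and 1 year. Of all 27084 genes 64.6% differed between these ages, and 69.7% above 15 FPKM, and Tst_2 enters both comparisons. Shares are named here where they left a 95% Wilson interval over genes or crossed 50%, counts where they moved by over 1.5 times and medians where they moved by over 0.1 or changed sign. The interval serves only as a limit for naming a value: genes are not replicates, so it is no error of the comparison.

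The share of lower genes among all called genes crossed 50% under several settings. It was 49.8% with a pseudocount of 1, 46.5% with equal FPKM totals, 44.8% at a log2 ratio above 2, 46.6% without a filter and 44.1% at FPKM above 1. Scaling over the members gave 47.2% and totals without c693433_g1 gave 47.7%, and these 2 settings were chosen after seeing the data. It was higher at 61.9% with median-of-ratios scaling, 53.4% among genes listed in both libraries, 54.0% at a log2 ratio above 0.5 and 63.4% at FPKM above 15. Above 60 FPKM the share moved to 87.0% with median-of-ratios scaling and stayed above 50% under the other settings run. The median log2 ratio was -0.24 with median-of-ratios scaling, 0.0158 with equal totals, 0.0052 with scaling over the members and -0.15 at FPKM above 60.

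The higher and lower genes numbered 4680 and 5494 at a log2 ratio above 0.5, 1112 and 903 above 2, 108428 and 94485 without a filter, 29357 and 23182 at FPKM above 1, and 299 and 518 at FPKM above 15. The number of genes kept and the size asked for set these counts by construction. Of the lower genes, the share that also differed at 1 year was 91.7% at a log2 ratio above 0.5 in both comparisons, 84.8% above 2, 74.6% without a filter and 90.3% at FPKM above 15. Of the higher genes it was 44.6% with a pseudocount of 1, 53.0% with median-of-ratios scaling, 75.9% among genes listed in both libraries, 73.2% at a log2 ratio above 0.5, 30.5% above 2, 43.6% without a filter, 39.5% at FPKM above 1 and 65.2% at FPKM above 15. The cause was not tested. The log2 ratio of c693433_g1 was -1.05 with median-of-ratios scaling, which made it a call. No paired analysis was possible because the series holds 1 library per age, and for that reason no library could be left out in turn. The fragments behind each FPKM are unknown, so calls near 5 FPKM can rest on few of them.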

Other observations

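A few abundant genes left the lists between 3 and 5 years, and 2 of them had been higher still at 1 year. Of the genes above 60 FPKM in Tst_2, 3 were not listed in Tst_3, and none of the 3 was listed in Tst_4. They had an FPKM of 252.7, 250.2 and 0 in Tst_1 and of 137.5, 118.2 and 60.3 in Tst_2. No gene above 60 FPKM in Tst_3 was missing from Tst_2, which is 0 of the 28 higher genes at this level.

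Genes listed at 0 in 1 of the 2 libraries were looked up in Tst_1 and Tst_4. Of the 666 genes above 5 FPKM in Tst_3 and not listed in Tst_2, 483 (72.5%) were listed in neither Tst_1 nor Tst_4. Of the 479 genes above 5 FPKM in Tst_2 and not listed in Tst_3, 266 (55.5%) were listed in neither. Of all 27084 genes 18.2% were listed at 0 in Tst_1 and 4.50% in Tst_4. No share at a matched FPKM was worked out, so nothing is read from these counts.

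Identifiers such as c693433_g1 join a cluster number and a gene number, and 24.7% of the members shared a cluster with another member, so they may not all be separate genes. The 4539 called genes came from 4431 clusters. In 101 clusters several genes were called, and in 84 of these the called genes had 1 direction, all lower in 47 and all higher in 37, while 17 held both directions. Many clusters with few called genes would hold 1 direction anyway. No share to set beside the 84 was worked out, so nothing is read from this count. The 67 lower and 28 higher genes above 60 FPKM came from 65 and 27 clusters.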
